A study of Mus musculus with 28 samples.

Results

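The 9 genes described here encode CXC chemokines and receptors of mouse skin. They are the ligands Cxcl1, Cxcl2, Cxcl5, Cxcl12, Cxcl13, Cxcl14 and Cxcl16 and the receptors Cxcr4 and Cxcr6. They were taken by name, as every array probe annotated to these symbols, and all 9 of 9 were found among 19532 named genes. They lie on 12 probes, of which Cxcl12, Cxcl16 and Cxcr4 have 2 each. Whole skin RNA of 24 mice was measured on 28 arrays in 6 groups, 2 weeks after spleen cells were transferred to set up chronic graft-versus-host disease. Every recipient was of balb/c background and lacked Rag2 (rag2-/-), so it could form no T or B cells of its own, in the control groups too. The donors were B10.D2 mice, which differ from the recipients in minor antigens (allogeneic transfer, allo), or balb/c mice (syngeneic transfer, syn).

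The groups were as follows. Recipients that also lacked Il13 were 4 allo and 4 syn mice, and recipients without Il4ra, the subunit that IL-4 and IL-13 receptors share, were 4 allo and 3 syn mice. Recipients that lacked only Rag2 were 5 allo and 4 syn mice. The labels name the donors by strain alone and give no age, and the recipient deletions are not restricted to a tissue. All Il13-deficient mice carried numbers beginning with 62, the Rag2-only mice numbers beginning with 57 or 61, and the Il4ra-deficient mice numbers beginning with 45 or 57. Genotype and number series can therefore not be told apart where Il13-deficient mice are set against other recipients.

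Chemokines are small secreted proteins that draw leukocytes along a gradient by way of G-protein-coupled receptors. Cxcl1, Cxcl2 and Cxcl5 carry a glutamate-leucine-arginine motif and draw neutrophils through Cxcr2, and their genes are switched on by IL-1, TNF and IL-17 through NF-kB. Cxcl12 is made by stromal cells and binds Cxcr4, which most leukocytes carry, and Cxcl13 draws Cxcr5-positive B and follicular helper T cells. Cxcl16 is made as a membrane-bound protein by macrophages, dendritic cells and keratinocytes and is the ligand of Cxcr6, a receptor of tissue-homing and resident T cells. Cxcl14 is made constitutively by epidermis.

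All levels are log2 ratios of skin over a reference RNA pooled from mouse cell lines, so a level of 1 is a 2-fold excess in skin, and levels of different genes cannot be set against each other. A difference of levels was called when limma's moderated test across 14783 genes gave a Benjamini-Hochberg adjusted p under 0.05. The sign of the deposited ratios was turned, after which 10 of 10 keratinocyte genes lay above the reference with a median level of 5.67. These genes served to choose that sign, so they are no separate check of the samples. The arrays of 4 mice bear on the results below. The syn Il13-deficient mice 6229 and 6234 had hair follicle genes at mean levels of 4.80 and 5.61, and their 2 group mates at 2.01 and 2.92, against -0.29 to 0.20 in allo Il13-deficient mice. This mean covers 2 of the 8 listed hair follicle genes, Msx2 and S100a3, which were measured in all mice. The allo mice 5704 (Rag2-only) and 6224 (Il13-deficient) stood above their groups in several, though not all, neutrophil-linked genes. Bulk skin cannot tell more cells of a type from more RNA per cell, and nothing says that the mice of a group came from separate experiments, so p-values measure the spread between these mice.

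Cxcr6 and Cxcl16, a receptor and its ligand, were the genes that rose with allogeneic cells in all 3 recipient genotypes. In Il13-deficient recipients 5 of the 8 members tested rose and 0 fell, against 9.19% and 7.11% of all genes tested. In Il4ra-deficient recipients 2 of 8 rose and 0 fell, against 5.91% and 3.31% of all genes. In Rag2-only recipients 4 of 8 rose (Cxcl1, Cxcl16, Cxcr4 and Cxcr6) and 1 fell (Cxcl14), against 12.6% and 15.6% of all genes. The median difference of the 8 members was 1.67 in Il13-deficient, 0.48 in Il4ra-deficient and 1.48 in Rag2-only recipients, while that of all genes lay at -0.05, -0.05 and -0.08. Cxcl2 was the member not tested, because it was measured in too few mice of the syn Il4ra-deficient group. Wherever Cxcl12 is given as 1 gene, it is the mean of its 2 probes, which did not move alike. The count in Il13-deficient recipients depended on single mice and on the fit. It was 3 without mouse 6224, 4 without both 5704 and 6224, and 2 when only the 2 Il13-deficient groups were fitted.

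**Figure D1:**
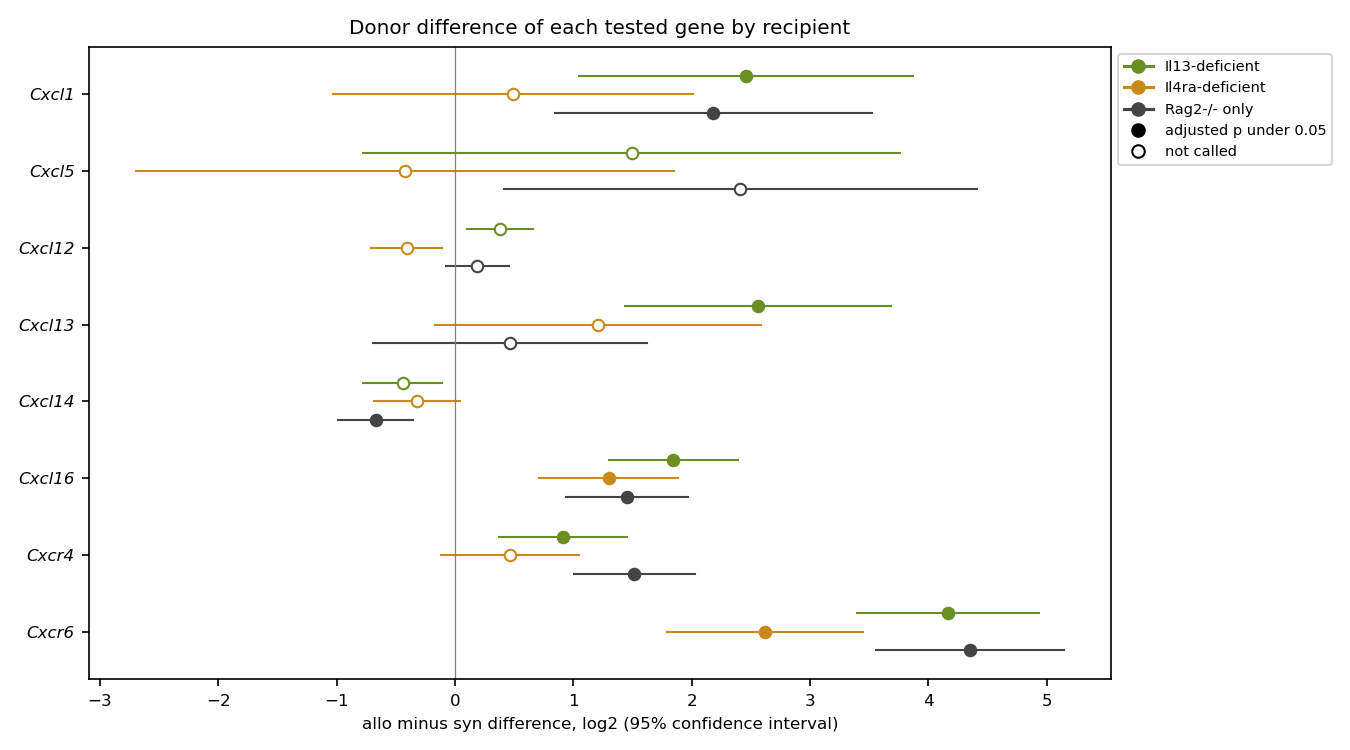
Allo minus syn difference (log2, x axis) with its 95% confidence interval for the 8 members tested, by recipient genotype. Filled points passed an adjusted p of 0.05. Cxcl16 and Cxcr6 are filled in all 3 genotypes, with Cxcr6 differences of 4.17, 2.62 and 4.35.

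The neutrophil-attracting ligands are shown first with the promoters of Cxcl1 and Cxcl2, since these genes are neighbours and their highest levels fell in the same mice. On chromosome 5 the CXC ligand genes of this cluster run in the order Cxcl5, Ppbp, Pf4, Cxcl3, Cxcl15, Cxcl1 and Cxcl2 in the RefSeq gene table (GRCm38.p6). RefSeq promoter sequence, from 250 bases before to 50 after the start, was found for 7 of the 9 members. None was found for Cxcl5 and Cxcl16, so these were not searched. The letters GGAATTTCC, part of a known NF-kB site and the only motif searched, were looked for on both strands. They occur in 104 of 32851 promoters of this length (0.317%), and among the members in Cxcl1 and Cxcl2, on the strand of the gene. Their first letter lies at -70 in Cxcl1 and at -96 in Cxcl2, counted from the start, and they stand in capitals below. The match describes these letters and shows no binding. The share over all promoters is given as background and is no test of enrichment. Other forms of an NF-kB site were not searched, so promoters without these letters may still hold one.
Cxcl1, chr5:90890995-90891294, plus strand: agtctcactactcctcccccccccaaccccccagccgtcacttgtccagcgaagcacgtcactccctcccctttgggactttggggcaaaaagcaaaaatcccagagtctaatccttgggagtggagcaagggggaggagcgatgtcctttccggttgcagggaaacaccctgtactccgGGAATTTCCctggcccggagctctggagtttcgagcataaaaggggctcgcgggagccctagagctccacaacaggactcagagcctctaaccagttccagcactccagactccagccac
Cxcl2, chr5:90903649-90903948, plus strand: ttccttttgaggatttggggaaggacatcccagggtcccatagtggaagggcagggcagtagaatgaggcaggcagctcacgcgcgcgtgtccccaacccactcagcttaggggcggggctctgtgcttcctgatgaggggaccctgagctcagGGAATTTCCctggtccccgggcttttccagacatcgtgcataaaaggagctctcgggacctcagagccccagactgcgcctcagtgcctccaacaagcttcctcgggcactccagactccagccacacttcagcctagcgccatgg

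Cxcl1, the closest mouse counterpart of human GRO chemokines, rose in Il13-deficient and in Rag2-only recipients. In Il13-deficient mice its levels were -4.45, -0.96, -3.92 and -3.73 in allo mice (6223, 6224, 6226 and 6232), against -5.72, -4.69, -5.50 and -6.99 in syn mice. All 4 allo mice lay above all 4 syn mice, with mouse 6224 far ahead. The difference was 2.46 ± 0.68 (SE, adjusted p = 0.015), 5.5-fold. Without mouse 6224 it was 1.69 with an adjusted p of 0.0726, without 6234 it was 2.04 (0.065), and without 6229 and 6234 it was 2.35 (0.0713).

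In Il4ra-deficient mice Cxcl1 stood at -3.92, -4.24, -5.41 and -5.21 in allo mice (4533, 4534, 5718 and 5720), against -5.50, -4.42 and -5.64 in syn mice. These groups overlapped, and the difference of 0.49 ± 0.73 (SE, adjusted p = 0.734) has a 95% interval of -1.03 to 2.01. The difference was 1.42 among mice numbered from 45, with 1 syn mouse, and -0.28 among those numbered from 57. In Rag2-only mice the levels were -3.31, -1.02, -3.29, -3.91 and -2.59 in allo mice (5701, 5704, 6151, 6152 and 6154), against -4.60, -5.85, -5.32 and -4.26 in syn mice (5700, 5702, 5703 and 6153). All allo mice were above all syn mice, with 5704 highest. The 2 arrays of syn mouse 5703, averaged here, gave Cxcl1 at -6.05 and -4.59. The difference was 2.18 ± 0.64 (SE, adjusted p = 0.0153), 4.54-fold, and without mice 5704 and 6224 it was 1.73 (0.00987). It was 3.09 among mice numbered from 57 and 1.00 among those numbered from 61, where there was 1 syn mouse.

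Cxcl2 had a ratio in 15 of 24 mice. In Il13-deficient recipients the allo levels were 0.62, 1.82 and 0.64 (6223, 6224 and 6226), against -0.23 and 0.11 in syn mice. In Il4ra-deficient recipients they were 0.61, -0.22 and 0.08, against -0.48 in the 1 syn mouse measured. In Rag2-only recipients they were 1.79, 1.93, 0.97 and 0.56 (5701, 5704, 6152 and 6154), against -0.15 and -0.16 in syn mice. The measured allo mice lay above the measured syn mice in each genotype, and mice 5701, 5704 and 6224 were the highest. That separation holds only with exact zeros taken as not measured. With zeros kept as values the differences were 0.80 in Il13-deficient, 0.28 in Il4ra-deficient and 1.11 in Rag2-only recipients (limma, adjusted p = 0.189, 0.776 and 0.027). Fitted on the Rag2-only groups alone the difference was 1.47 ± 0.40 (SE, adjusted p = 0.0415), and on the Il13-deficient groups alone 1.09 (adjusted p = 0.257).

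Cxcl5, which in skin draws neutrophils and is also made by keratinocytes, was called in no comparison. It had the largest SD of the members in allo Il13-deficient (2.51) and allo Rag2-only mice (1.98). In Il13-deficient recipients it stood at -4.75, 0.51, -4.82 and -3.60 in allo mice, against -5.89, -4.03 and -4.04 in the 3 syn mice measured. Mouse 6224 alone was above the reference, and without it the difference fell to 0.27, against 1.49 ± 1.09 with it (SE, adjusted p = 0.397). In Il4ra-deficient recipients the levels were -5.20, -4.03, -3.91 and -5.10 in allo mice, against -4.41, -3.31 and -4.69 in syn mice, a difference of -0.43 ± 1.09 (SE, adjusted p = 0.853). In Rag2-only recipients they were -2.12, 0.95, -3.79, -3.47 and -0.70 in allo mice, against -3.65, -5.00, -4.37 and -3.94 in syn mice. The groups overlapped through mouse 6151, with a difference of 2.41 ± 0.96 (SE, adjusted p = 0.0651). The 3 arrays of syn mouse 5702, averaged here, gave Cxcl5 at -3.74, -6.31 and -4.94. Repeat arrays of 1 mouse could thus lie further apart than the group difference at levels this far below the reference. Without mice 5704 and 6224 this Rag2-only difference was 1.72 with an adjusted p of 0.0439, and without 6151 it was 2.90 (0.0342). Between number series it was 3.75 among mice numbered from 57 and 1.28 among those numbered from 61.

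**Figure D2:**
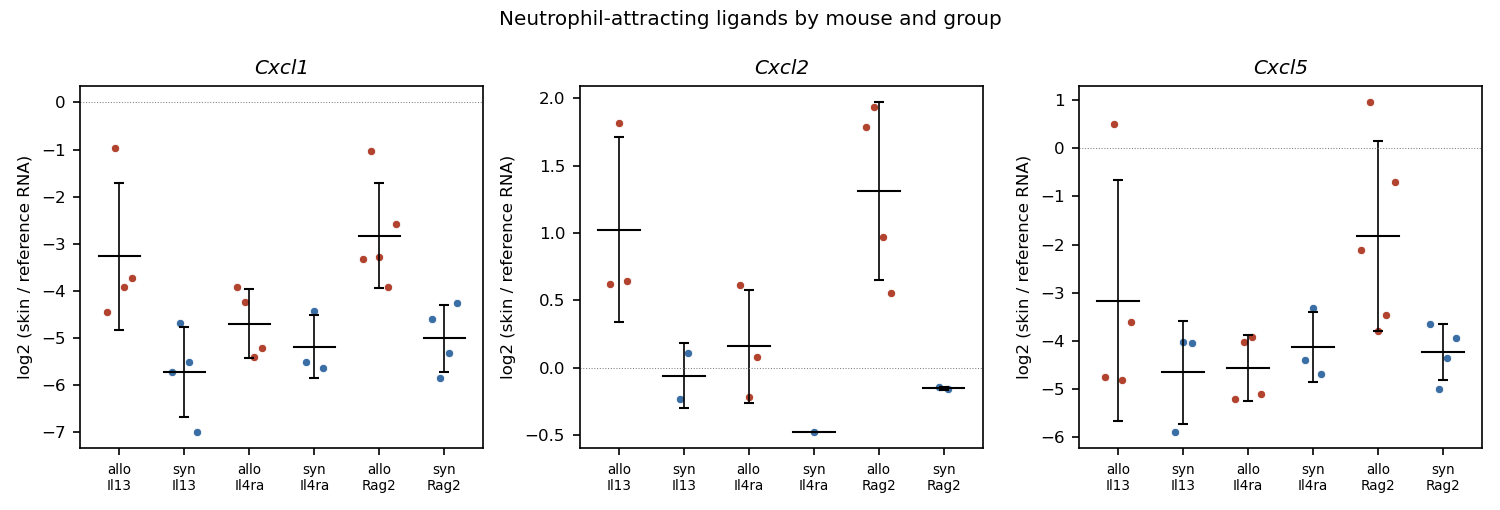
Level of Cxcl1, Cxcl2 and Cxcl5 in each mouse (log2 of skin over reference RNA) by group, allo in red and syn in blue. Bars are the mean and the SD. In the allo Il13 group the highest point in all 3 panels is mouse 6224, at -0.96, 1.82 and 0.51.

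The same mice carried the highest levels of the 3 ligands. Among allo mice, 6224 and 5704 ranked 1 and 2 for Cxcl1 (13 mice) and 2 and 1 for Cxcl2 (10 mice measured) and Cxcl5 (13 mice). Other genes of the chosen lists were then looked up in these mice, after their values were seen. Cxcl3, a further neutrophil attractant of the chromosome 5 cluster, reached 4.17 in 6224 and 3.35 in 5704, and at most 0.80 in the other allo mice measured. Cxcr2, the receptor of these ligands, stood at 2.33 in 6224 and 4.13 in 5704, with the next allo mouse at 0.99. S100a8, a calcium-binding protein abundant in neutrophils, was at 5.58 and 5.21, with the next allo mouse at 2.12. Il6 was at 1.93 and 2.16, with the next at 0.26. S100a9, the partner of S100a8, did not follow, since mouse 6154 was highest at 8.34, with 5704 at 7.63 and 6224 at 7.46. Mpo, the granule enzyme myeloperoxidase, was highest in 6224 (2.74) but lowest of the allo Rag2-only mice in 5704 (0.30, against 0.57 to 1.85 in the others). Over the whole list of 12 neutrophil markers, 6224 was among the 2 highest allo mice for 7 of 8 markers measured in it, and 5704 for 7 of 10. Of the 12 neutrophil markers listed, 4 could be tested. S100a8 rose in Rag2-only recipients (2.31, adjusted p = 0.0412, and 1.60, 0.00807, without 5704 and 6224), and 0 of 4 were called in the other genotypes. Over all genes tested 9.19%, 5.91% and 12.6% rose in Il13-deficient, Il4ra-deficient and Rag2-only recipients. Ngp, a granule protein, had a ratio in 3 of 24 mice and Elane in 8. The mean level of the 2 markers measured in all mice was 0.44 to 4.16 in allo against 0.23 to 2.52 in syn Il13-deficient mice, 0.44 to 0.70 against 1.11 to 1.76 in Il4ra-deficient mice, and 0.99 to 2.76 against 0.79 to 1.81 in Rag2-only mice. The part of neutrophil content in the ligand levels was not tested.

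**Figure D3:**
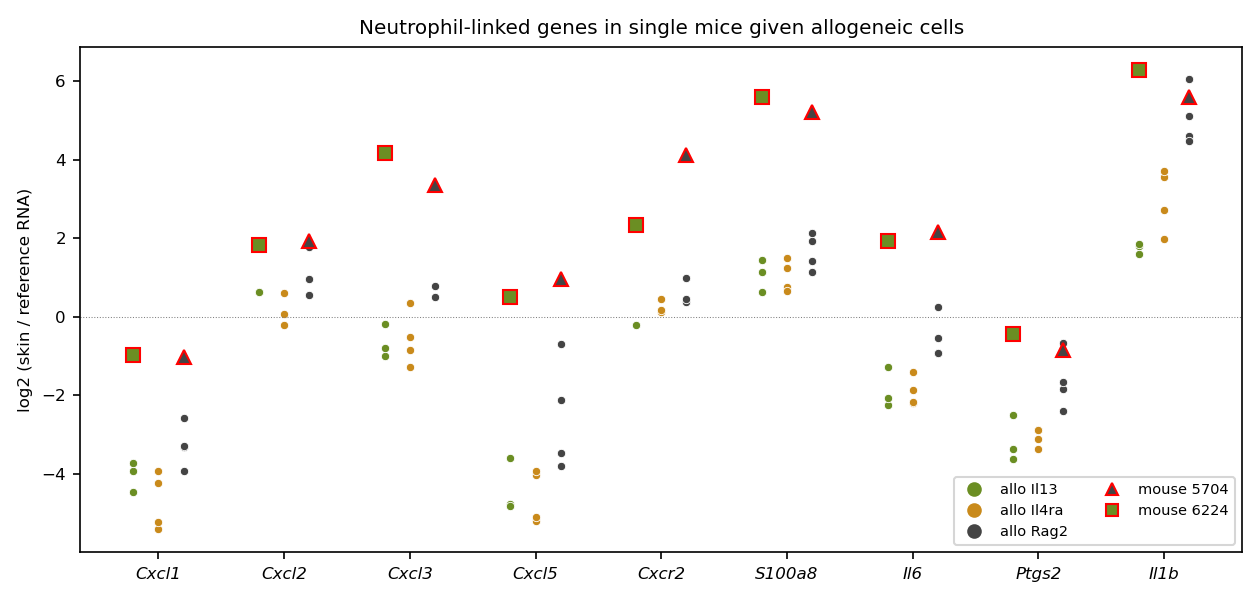
Levels (log2 of skin over reference RNA) of 3 members and 6 listed genes in single allo mice, with mouse 6224 as a square and mouse 5704 as a triangle. Both symbols lie above the remaining points for Cxcl1, Cxcl3, Cxcl5, Cxcr2, S100a8 and Il6, whereas all 5 allo Rag2-only mice are high for Il1b.

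Of 10 tested genes that induce or relay these ligands, 5 rose in Il13-deficient, 5 in Il4ra-deficient and 9 in Rag2-only recipients, and 0 fell. Over all genes tested 9.19%, 5.91% and 12.6% rose and 7.11%, 3.31% and 15.6% fell, in that order. The median difference was 1.30, 0.48 and 1.14. Tnf, an inflammatory cytokine, rose by 1.90, 1.54 and 1.27. Il1b, the cytokine IL-1 beta, stood at 1.61, 6.28, 1.79 and 1.86 in allo Il13-deficient mice, 1.98 to 3.72 in allo Il4ra-deficient mice and 4.48 to 6.05 in allo Rag2-only mice, against -0.05 to 0.75 in all syn mice measured. Its differences of 2.63, 2.48 and 4.70 all passed (adjusted p = 0.0208, 0.0454 and 3.22e-05). The first was 1.5 without mice 5704 and 6224 (adjusted p = 0.0152), and without 6229 and 6234 it was 2.48 and did not pass (0.0792).

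Cxcr6 showed the largest differences of the members tested in each recipient genotype. In Il13-deficient mice it stood at 4.53, 5.06, 3.69 and 5.12 in allo mice, against 1.32, 0.07, 0.42 and -0.08 in syn mice. In Il4ra-deficient mice it stood at 3.46, 4.21, 4.0 and 3.80 in allo mice, against 1.53, 1.55 and 0.67 in syn mice. In Rag2-only mice it stood at 5.05, 5.17, 5.54, 4.57 and 6.32 in allo mice, against 0.64, 1.05 and 1.24 in the 3 syn mice measured. The lowest allo mouse lay well above the highest syn mouse in every genotype. The differences were 4.17 ± 0.37 (18-fold, adjusted p = 6.97e-08), 2.62 ± 0.40 (6.14-fold, 0.000207) and 4.35 ± 0.38 (20.4-fold, 7.11e-08; SE). Among Il4ra-deficient mice the difference was 2.30 in those numbered from 45 and 2.79 in those numbered from 57.

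Most T cell genes tested also rose with allogeneic cells. Of 8 T cell markers tested, 7, 6 and 7 rose in Il13-deficient, Il4ra-deficient and Rag2-only recipients, against 9.19%, 5.91% and 12.6% of all genes. Cd3d was higher by 4.87, 3.87 and 4.54. Cd4 fell in Il13-deficient mice by 1.64, as 7.11% of all genes fell there. Without mice 5704 and 6224 the counts were 6, 6 and 7, and Cd4 was not called. The mean level of the 6 markers measured in all mice was 0.79 to 1.78 in allo against -1.10 to -0.49 in syn Il13-deficient mice. It was 0.79 to 1.01 against -1.06 to -0.63 in Il4ra-deficient mice and 1.60 to 2.30 against -0.91 to -0.61 in Rag2-only mice. The part of T cell content in the Cxcr6 difference was not tested.

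Cxcl16 rose in all 3 genotypes, and both of its probes did. Its levels in Il13-deficient mice were 4.41, 4.72, 4.21 and 4.32 in allo mice, against 3.35, 2.25, 2.73 and 1.97 in syn mice. In Il4ra-deficient mice they were 4.13, 4.15, 4.67 and 4.33, against 3.09, 2.90 and 3.07. In Rag2-only mice they were 4.41, 4.59, 5.12, 4.34 and 5.20, against 3.29, 3.53, 3.62 and 2.68. Allo and syn mice did not overlap in any genotype, and the allo levels ran from 4.13 to 5.20 over the 3 genotypes. Probe A_51_P374203 had allo means of 3.97 in Il13-deficient, 3.72 in Il4ra-deficient and 4.48 in Rag2-only mice. Those of probe A_52_P99888 were 4.87, 4.92 and 4.98. The allo minus syn differences of Cxcl16 were 1.85 ± 0.26 (3.59-fold, adjusted p = 2.38e-05), 1.30 ± 0.28 (2.46-fold, 0.00549) and 1.45 ± 0.25 (2.74-fold, 0.000204, SE). Within number series they were 1.02 and 2.21 in Rag2-only mice (57 and 61) and 1.05 and 1.51 in Il4ra-deficient mice (45 and 57).

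Most macrophage genes tested also rose with allogeneic cells, as T cell genes did, so neither set pairs with 1 member alone. Of 7 macrophage and monocyte markers tested, 7, 5 and 6 rose in Il13-deficient, Il4ra-deficient and Rag2-only recipients, against 9.19%, 5.91% and 12.6% of all genes. The mean level of the 6 markers measured in all mice was 3.34 to 4.38 in allo against 0.86 to 1.96 in syn Il13-deficient mice. It was 3.41 to 3.79 against 1.84 to 2.21 in Il4ra-deficient mice and 3.59 to 4.10 against 1.67 to 2.26 in Rag2-only mice. Their part in the Cxcl16 difference was not tested. Adam17, a protease that can release Cxcl16 from the cell surface, rose by 0.91 in Il13-deficient and 0.84 in Rag2-only recipients (adjusted p = 0.00656 and 0.00557). Its difference of 0.64 in Il4ra-deficient recipients did not pass (adjusted p = 0.101). Adam10, the main constitutive sheddase, was called in none of the 3 (adjusted p from 0.134 to 0.819).

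**Figure D4:**
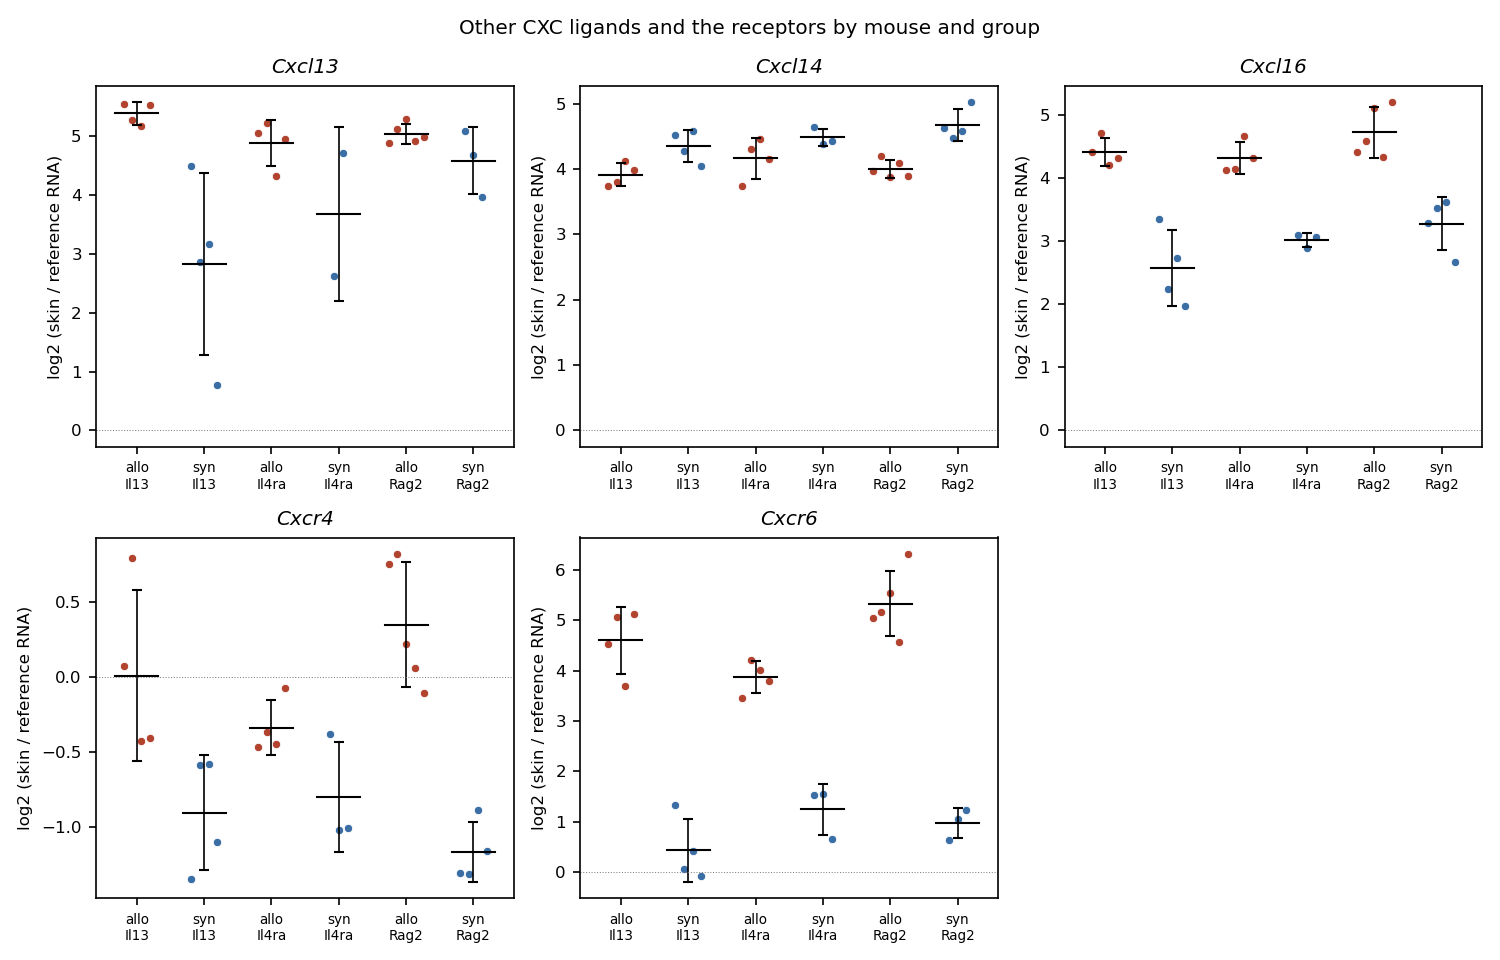
Level of Cxcl13, Cxcl14, Cxcl16, Cxcr4 and Cxcr6 in each mouse (log2 of skin over reference RNA) by group, allo in red and syn in blue, with mean and SD. Cxcl16 and Cxcr6 show no overlap between allo and syn in any recipient, while syn levels of Cxcl13 run from 0.77 to 5.10.

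Cxcl13 differed through its syn mice. Its allo levels were 5.56, 5.28, 5.18 and 5.54 in Il13-deficient, 5.06, 5.22, 4.32 and 4.96 in Il4ra-deficient and 4.89, 5.12, 5.30, 4.93 and 5.0 in Rag2-only recipients. The syn levels were 4.50, 2.86, 3.18 and 0.77 in Il13-deficient mice, 2.63 and 4.73 in the 2 Il4ra-deficient mice measured, and 5.10, 4.68 and 3.97 in the 3 Rag2-only mice measured. Thus 1 syn Il13-deficient mouse, 6234, lay far below the rest, and allo levels varied little. The difference was 2.56 ± 0.54 in Il13-deficient recipients (5.91-fold, adjusted p = 0.00223), 1.21 ± 0.66 in Il4ra-deficient (0.268) and 0.46 ± 0.55 in Rag2-only recipients (0.579; SE). The call in Il13-deficient recipients was lost with exact zeros kept as values (adjusted p = 0.0812) and with only these 2 groups fitted (0.0628). Without 6234 the difference was 1.88 (adjusted p = 0.00481), and without 6229 and 6234 it was 1.55 (0.038). Cxcr5, the receptor of Cxcl13, had a ratio in 13 mice and was not tested. Of the 4 B cell and follicular dendritic cell genes tested, 0 rose in any genotype, against 9.19%, 5.91% and 12.6% of all genes. Ms4a1, which encodes CD20, fell by 1.05 in Rag2-only recipients, where 15.6% of all genes fell. Cd79b and Ms4a1, both B cell genes, lay far below the reference, at median levels of -4.50 and -4.57.

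Cxcl14 was lower with allogeneic cells in Rag2-only recipients. Its levels there were 3.97, 4.21, 3.87, 4.09 and 3.90 in allo mice, against 4.62, 4.47, 4.58 and 5.02 in syn mice, with no overlap. The difference was -0.67 ± 0.15 (1.59-fold lower, SE, adjusted p = 0.00277). It was -0.47 among mice numbered from 57 and -1.07 among those numbered from 61. Under quantile normalization between arrays it was -0.44 with an adjusted p of 0.0709. In Il13-deficient mice the levels were 3.74, 3.80, 4.13 and 3.99 in allo against 4.52, 4.27, 4.58 and 4.04 in syn mice, a difference of -0.44 ± 0.16 (adjusted p = 0.0671). This Il13-deficient difference passed under quantile normalization (-0.60, adjusted p = 0.0315), with arrays centred on their median (-0.48, 0.041), and without 6226 (-0.51, 0.0419), 6234 (-0.54, 0.0351) or both 6229 and 6234 (-0.64, 0.0347). Which genotype was called for Cxcl14 thus depended on the scaling. In Il4ra-deficient mice they were 3.74, 4.31, 4.46 and 4.15 against 4.64, 4.38 and 4.44, a difference of -0.32 ± 0.17 (adjusted p = 0.261; SE). In these 2 genotypes allo and syn mice overlapped.

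Some keratinocyte genes were also lower in Rag2-only recipients, where 4 of 8 tested fell (Krt1, Krtdap, Lor and Trp63), against 15.6% of all genes. The mean level of the 8 was 4.67 to 5.06 in allo against 5.17 to 5.60 in syn mice. In the other 2 genotypes 0 of 8 were called. Other tissue markers were lower in the same comparison, with 4 of 5 adipocyte genes (median difference -1.12) and 3 of 5 skeletal muscle genes (-0.84) called. Their part in the Cxcl14 difference was not tested.

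Cxcr4 rose in Il13-deficient and Rag2-only recipients. Its levels in Il13-deficient mice were 0.08, 0.79, -0.42 and -0.40 in allo mice, against -1.34, -0.59, -0.58 and -1.09 in syn mice. In Il4ra-deficient mice they were -0.47, -0.36, -0.45 and -0.07, against -0.37, -1.01 and -1.0. In Rag2-only mice they were 0.76, 0.82, 0.22, 0.07 and -0.11, against -1.30, -1.31, -0.88 and -1.16. Groups were apart except in Il4ra-deficient mice, and 5704, 6224 and 5701 were the 3 highest allo mice. The differences were 0.91 ± 0.26 (1.88-fold, adjusted p = 0.0184), 0.46 ± 0.28 (0.327) and 1.52 ± 0.25 (2.86-fold, 0.000118; SE). Among Il4ra-deficient mice it was -0.04 in those numbered from 45 and 0.75 in those numbered from 57, and among Rag2-only mice it was 1.22 (61) and 1.96 (57). The call in Il13-deficient mice was lost without 6224 (0.65, adjusted p = 0.0895), 6225 (0.76, 0.0544) or 6234 (0.85, 0.056). There the 2 probes differed as well, at 0.53 (adjusted p = 0.262) and 1.29 (0.00302). They were also unlike in Il4ra-deficient mice, where the difference of 0.46 is their mean. Probe A_52_P585124 averaged -0.08 in allo (-0.30 to 0.33) against -0.92 in syn Il4ra-deficient mice (-1.27 to -0.65). Probe A_52_P565353 averaged -0.59 (-0.82 to -0.42) against -0.68 (-1.17 to -0.10) there.

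Cxcl12, the ligand of Cxcr4, could not be described by 1 value, because its 2 probes moved in opposite directions. The probes are annotated to different transcript records of the gene. Probe A_52_P685021 rose in Il13-deficient and Rag2-only recipients, whereas probe A_51_P172502 fell in Il4ra-deficient and Rag2-only recipients. Probe A_52_P685021 stood at -0.74, -0.38, -0.69 and -0.57 in allo Il13-deficient mice, against -1.65, -2.04, -2.17 and -1.68 in syn mice. It stood at -1.07, -0.93, -1.38 and -0.92 in allo Il4ra-deficient mice, against -1.04, -1.10 and -1.12 in syn mice. In Rag2-only mice it stood at 0.44, -0.81, 0.20, -0.11 and 1.01 in allo, against -1.14, -1.57, -0.87 and -1.10 in syn mice. Allo mice lay above syn mice in Il13-deficient and Rag2-only recipients, and the Il4ra-deficient groups overlapped. With each probe tested on its own over 23658 probes, the differences were 1.29 ± 0.26 (adjusted p = 0.00141), 0.01 ± 0.28 (0.988) and 1.32 ± 0.24 (0.000537; SE).

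Probe A_51_P172502 stood at -2.34, -1.77, -2.27 and -2.07 in allo Il13-deficient mice, against -1.60, -1.54, -1.38 and -1.80 in syn mice. It stood at -2.01, -2.13, -2.62 and -2.67 in allo Il4ra-deficient mice, against -1.67, -1.36 and -1.54 in syn mice. In Rag2-only mice it stood at -2.22, -1.73, -2.21, -2.10 and -2.69 in allo, against -1.37, -1.29, -1.45 and -0.90 in syn mice. Allo mice were lower with no overlap in the last 2 genotypes. The differences were -0.53 ± 0.20 (adjusted p = 0.0807), -0.83 ± 0.21 (0.0205) and -0.94 ± 0.19 (0.000978; SE). So 1 of the 2 probes was called in Il13-deficient recipients, upward, 1 in Il4ra-deficient, downward, and both in Rag2-only recipients, 1 each way. Over all probes 7.35% rose and 5.19% fell in Il13-deficient, 4.24% and 2.36% in Il4ra-deficient, and 11.1% and 13.2% in Rag2-only recipients. The gap between the probes (A_52_P685021 minus A_51_P172502) averaged 1.52 ± 0.10 in allo against -0.31 ± 0.42 in syn Il13-deficient mice. It averaged 1.28 ± 0.34 against 0.44 ± 0.19 in Il4ra-deficient mice and 2.34 ± 1.01 against 0.08 ± 0.40 in Rag2-only mice (SD). Their mean, which served as the gene value, hid this: it differed by 0.38, -0.41 and 0.19 and was not called (adjusted p = 0.0583, 0.0803 and 0.287).

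**Figure D5:**
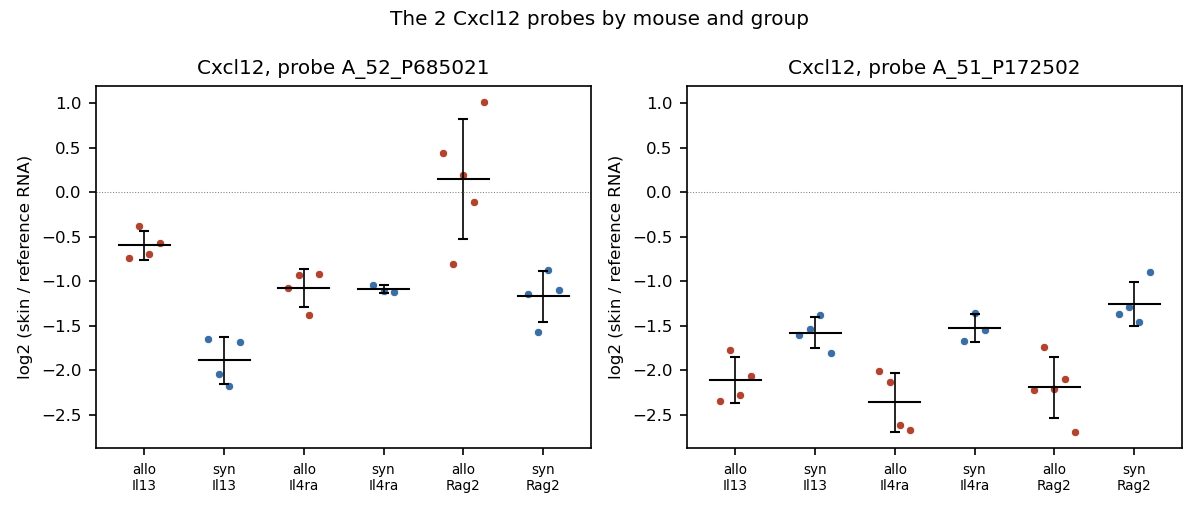
Level of the 2 Cxcl12 probes in each mouse (log2 of skin over reference RNA) by group, allo in red and syn in blue, with mean and SD. In Rag2-only recipients the allo mice lie above the syn mice for probe A_52_P685021 and below them for probe A_51_P172502.

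Whether the donor difference itself depended on the recipient genotype was tested as an interaction. None of the 8 members was called for Il13-deficient minus Rag2-only, Il4ra-deficient minus Rag2-only or Il4ra-deficient minus Il13-deficient recipients, by limma, where 0.0135%, 0% and 0% of all genes were. At an unadjusted p under 0.05 there were 1, 3 and 2 members, against 16.1%, 4.94% and 12.4% of all genes. The donor difference of Cxcr6 was smaller by 1.73 in Il4ra-deficient than in Rag2-only recipients (95% interval -2.88 to -0.59, adjusted p = 0.836), and that of Cxcl13 was larger by 2.10 in Il13-deficient than in Rag2-only recipients (0.48 to 3.71, adjusted p = 0.215). For Cxcl1 the Il4ra-deficient minus Rag2-only term was -1.69 (-3.72 to 0.33) and for Cxcl16 it was -0.16 (-0.94 to 0.63). For Cxcl12 probe A_52_P685021 it was -1.30 ± 0.37 (SE, adjusted p = 0.799). So calls in 1 genotype and not in another are not shown to differ between genotypes. Without mouse 6225 the Cxcl13 term for Il13-deficient minus Rag2-only recipients was 2.66 and passed (adjusted p = 0.0263), as did the Cxcl12 term for Il4ra-deficient minus Il13-deficient recipients (-0.82, adjusted p = 0.0332).

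Between allo groups, 1 of 8 members was called in Il4ra-deficient against Rag2-only recipients, the mean of the Cxcl12 probes, which was lower by 0.69 (adjusted p = 0.0193), as were 0.534% of all genes, with 0.805% called either way. That call was lost without mouse 5701, 5718 or 5720 and with the number series as a block. Of the probes, A_52_P685021 was lower by 1.22 ± 0.24 (SE, adjusted p = 0.0317), against 0.283% of all probes lower, and A_51_P172502 differed by -0.17 (adjusted p = 0.81). Cxcr6 averaged 3.87 ± 0.32 in allo Il4ra-deficient mice and 5.33 ± 0.65 in allo Rag2-only mice (SD, n = 4 and 5), with no overlap. Its difference of -1.46 ± 0.35 (SE) had an adjusted p of 0.0533. It passed under quantile normalization (-1.59, adjusted p = 0.0268), with arrays centred on their median (-1.44, 0.0429) and without mouse 6152 (-1.65, 0.0396). In the same comparison 3 of 8 T cell markers were lower. Cxcl1 and Cxcl5 were also lower on average in allo Il4ra-deficient than in allo Rag2-only mice, by 1.87 and 2.73, without passing (adjusted p = 0.21 and 0.225). The nearest mice of these groups were almost level, at -3.922 (4533) and -3.911 (6152) for Cxcl1. For Cxcl5 they stood at -3.914 (5718) and -3.791 (6151). None of 8 was called in allo Il13-deficient against Rag2-only or in allo Il4ra-deficient against Il13-deficient mice, where 0% of all genes were, and at an unadjusted p under 0.05 there were 1 and 2, against 5.75% and 4.23% of all genes.

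Between syn groups, none of 8 was called in Il13-deficient against Rag2-only, Il4ra-deficient against Rag2-only or Il4ra-deficient against Il13-deficient mice, by limma, where 0.284%, 0% and 1.22% of all genes were. At an unadjusted p under 0.05 there were 3, 0 and 1 members, against 20.3%, 2.91% and 20.7% of all genes. The smallest adjusted p in the first of these was 0.072, for Cxcl12 (-0.52). Without mouse 6225 Cxcl12, Cxcl13 and Cxcl16 were lower in syn Il13-deficient than in syn Rag2-only mice, by 0.56, 2.32 and 0.96 (adjusted p = 0.0177, 0.0087 and 0.0158).

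In the order of group means the 3 allo groups came first for Cxcl1, Cxcl2, Cxcl13, Cxcl16, Cxcr4 and Cxcr6 and last for Cxcl14. For Cxcl16 the step from the lowest allo mean (4.32) to the highest syn mean (3.28) was larger than the SD of either neighbour, and no other step was. For Cxcr6 the 3 allo means (5.33 in Rag2-only, 4.60 in Il13-deficient and 3.87 in Il4ra-deficient mice) and the highest syn mean (1.25) were each apart by more than the SDs of their neighbours, while the syn means were not apart from each other. For Cxcl1 and Cxcl5 no step exceeded the spread of its neighbours. For Cxcl13 the step from the allo Il13-deficient (5.39) to the allo Rag2-only mean (5.05) did, and for Cxcr4 that from the allo Il4ra-deficient (-0.34) to the syn Il4ra-deficient mean (-0.80). For Cxcl14 no step did. For Cxcl2 the step from the allo Il13-deficient (1.03) to the allo Il4ra-deficient mean (0.16) did, and the 1 syn Il4ra-deficient mouse (-0.48) has no spread to compare. For the mean of the 2 Cxcl12 probes the allo Rag2-only group (-1.02) was first and the allo Il4ra-deficient group (-1.71) next to last. The steps below the allo Rag2-only and the allo Il13-deficient means (-1.35) exceeded the spread. Neither probe alone followed this order.

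Among 11852 genes measured in all mice, the closest 6-group pattern to Cxcl1, by the mean absolute difference of centred group means, was that of Tnfaip6 (0.15), Ptx3 (0.178) and Trpm2 (0.183). Tnfaip6 encodes TSG-6, an inflammation-induced hyaluronan-binding protein, and Ptx3 a soluble pattern-recognition protein. Closest to Cxcl16 were Trpv2 (0.0572), Trafd1 (0.0575) and Napsa (0.0606), and closest to Cxcr4 were Ddhd1 (0.0554), Rap2a (0.0687) and Creg1 (0.0691). Cxcl14 and the mean of the 2 Cxcl12 probes spanned less than 1 between group means, so no gene was named for them. Averaging narrowed the Cxcl12 span, since group means ran from -1.89 to 0.15 for A_52_P685021 and from -2.36 to -1.25 for A_51_P172502. Cxcl2, Cxcl5, Cxcl13 and Cxcr6 were not measured in all mice, so none was named for these either.

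Of 14 other CXC chemokine, receptor and processing genes tested, 6 rose in Il13-deficient, 5 in Il4ra-deficient and 7 in Rag2-only recipients, and 1 fell in each. Over all genes tested 9.19%, 5.91% and 12.6% rose and 7.11%, 3.31% and 15.6% fell. The median differences of the 14 were 0.68, 0.38 and 1.08. The interferon-induced ligand Cxcl10 rose by 6.13, 5.75 and 5.79, more than any of the 8 members tested, and Cxcl11 by 5.33, 5.51 and 5.62. Their receptor Cxcr3 rose by 3.37, 1.73 and 3.08. Cxcl9, also on this list, stood at 5.36 to 6.45 in allo mice and at 2.05 to 5.06 in the syn mice measured, so its groups lay closer together. The gene that fell was Dpp4, a peptidase that trims and inactivates several chemokines, Cxcl12 among them, by 0.56, 0.93 and 0.64 (adjusted p = 0.03, 0.00275 and 0.00625), and in Il13-deficient recipients this call was lost without mice 5704 and 6224. Ackr3, a scavenging receptor for Cxcl12, was called in none of the 3 genotypes (adjusted p = 0.846, 0.121 and 0.166). Pf4, a platelet chemokine of the chromosome 5 cluster, rose by 2.15, 1.56 and 1.42, and its neighbour Ppbp by 1.37 in Rag2-only recipients alone among the calls (adjusted p = 0.0446). Cxcl3 differed by 0.98, 0.23 and 2.06 and was not called (adjusted p = 0.589, 0.937 and 0.192).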

How the data were processed

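Skin RNA (Cy3) was hybridised with a pooled mouse reference RNA (Cy5) on 28 Agilent arrays, per the labels' protocols. The authors deposited 1 log2 ratio per probe and array, and how they were normalized is not given in the sources used here. These deposited values were read as reference over skin, and their sign was turned, because 10 of 10 keratinocyte genes then lie above 0 and 2 of 11 genes of dividing cells do. A log base of 2 was read from the spacing of values. Exact zeros (2.41% to 36.8% of probes per array) were taken as not measured. Arrays of 1 mouse (3 mice had several) were averaged. Of 41174 probes, 32664 carry 1 gene symbol, 45 several and 8465 none. Probes of a gene were averaged where they were the most complete and lacked the same mice, and the test covered 14783 genes with values in 2 or more mice per group. A model of 6 groups was fitted with limma 3.58.1 in R 4.3.3 and checked on simulated data, with Benjamini-Hochberg adjustment within each of 12 comparisons and a threshold of 0.05. Arrays give no counts, so the number of mice limits the precision.

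The named genes are the 9 members, the genes of the chosen lists and, for each member measured in all mice whose group means span at least 1, the 3 genes of most similar pattern. The members and lists were chosen with earlier results of these data known. Mouse numbers come from the titles. The label of mouse 5718 gives IL14Ra, taken as Il4ra, and the labels of 4533 (IL4Ra/-), 6230 and 1 array of 6232 (IL13/-) were read as -/-. Alternatives changed the zeros, scaling, filters, probe rule, repeat arrays, block and samples. Testing single probes, leaving out 5704 and 6224, and refitting the lists without the mice that stand apart, were chosen after seeing the data.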

Additional observations from a re-analysis of the deposited data

Results flagged for a closer look

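The members, 6 related genes and the Cxcl12 probes were examined for a mouse far from the others of its group, in 70 groups of 4 or 5 mice. Chance marks about 1 in 20 such groups. The search marked 6, none of them a member, and several of the 6 genes had been picked because mice 5704 and 6224 stood high. In allo Il13-deficient mice, mouse 6224 stood apart for Cxcl3 (4.17, with the next mouse at -0.18), for S100a8 (5.58, next 1.46) and for Il1b (6.28, next 1.86). In allo Rag2-only mice, mouse 5704 stood apart for Cxcr2 (4.13, next 0.99) and for S100a8 (5.21, next 2.12). In syn Il13-deficient mice, mouse 6225 stood apart for Ptgs2 (-3.93, next -3.53).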

How the results depend on the processing

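Of 1838 recomputed differences of single members, 1797 kept their side of the threshold, 18 lost a call, 23 gained one and 0 called values reversed, while 35 differences that were not called changed sign. The count of members called between allo and syn Il13-deficient mice (5) was 2 with only these groups fitted, 4 to 6 under the other alternatives and 3 to 7 with 1 mouse left out. Between Il4ra-deficient mice (2) it was 1 with only genes measured in all mice, 1 with dim repeated values as not measured, 3 under quantile normalization, where Cxcl12 was lower (-0.61, adjusted p = 0.02), and 2 with any 1 mouse left out. Between Rag2-only mice (5) it was 5 to 6 with 1 mouse left out and 4 to 6 under the other alternatives, with 4 under quantile normalization. The interaction counts were 0 to 1 for Il13-deficient minus Rag2-only and for Il4ra-deficient minus Il13-deficient recipients, in both reaching 1 without mouse 6225. For allo Il4ra-deficient against Rag2-only mice (1) the count was 2 under quantile normalization, 2 with arrays centred on their median, 0 with the number series as a block, 0 with only these groups, and 0 to 2 with 1 mouse left out. For syn Il13-deficient against Rag2-only mice (0) it was 0 to 3. Over all genes, calls between allo and syn mice numbered 880 with zeros kept, 2056 with only these groups and 601 at the lowest with 1 mouse left out, against 1362, in Il4ra-deficient recipients, and 819 with only these groups and 1432 without 6229 and 6234, against 2410, in Il13-deficient recipients. The cause of these shifts was not tested. No paired analysis was possible because the groups share no replicate numbers in the labels.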
